A study of Homo sapiens with 4 samples.

Results

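The response of MG cells to 5-azacytidine was compared, gene by gene, with the response of non-MG cells to the same treatment. HCT116 is a human colon carcinoma cell line. MG cells are the HCT116 cells that passed through the membrane of a transwell chamber and non-MG cells are those that stayed behind, and per the methods of the study both were enriched by repeated rounds of this selection. Each subpopulation had received 5 µM of 5-azacytidine or vehicle for 48 h, which gave 4 conditions of the same cell line with 1 array each. The response of a subpopulation is its log2 value with 5-azacytidine minus that with vehicle, and the response difference is the response of MG cells minus that of non-MG cells. It is positive where the drug raised a gene more, or lowered it less, in MG cells. The members are the 15707 genes and unnamed transcripts, of 40909 on the array, that had at least 1 probe well above background on all 4 arrays. Of them, 12751 had a RefSeq symbol and 12027 were measured by 1 spot. Each condition had 1 array, so there were no replicates and no test, and every value below describes these 4 arrays. The only error available is the spot error, the spread between spots of probes that were spotted 10 times, carried through the 4 arrays. It covers spotting and scanning and no difference between cultures.

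5-Azacytidine is a cytidine analog that is built into RNA and, after reduction, into DNA, where it traps DNA methyltransferases and leaves the daughter strands less methylated. Genes silenced by promoter methylation, such as germline antigens, can then be transcribed. The drug also causes DNA damage and can start interferon and NF-kB programmes. Incorporation into DNA takes place in S phase, when the replication-dependent histone genes are active as well.

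Of the 15707 genes, 116 (0.739%) had a larger response in MG cells past 2-fold, and 50 (0.318%) had a smaller one. Past 1.5-fold, 558 (3.55%) were larger and 378 (2.41%) were smaller. The balance moved with the scaling, since 89 larger and 71 smaller genes were found past 2-fold when the 75th percentile was taken over the measured probes alone. The median response difference over all genes was 0.02 on the log2 scale, with quartiles of -0.14 and 0.18 and 46.3% of genes below 0. In each subpopulation taken alone, 5-azacytidine raised 474 genes (3.02%) and lowered 330 (2.1%) past 1.5-fold in MG cells, and it raised 298 (1.9%) and lowered 264 (1.68%) in non-MG cells. Across the 15707 genes, which are not independent replicates, the responses of both subpopulations had a Pearson r of 0.45 and a Spearman rho of 0.37. They share no array.

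**Figure D1:**
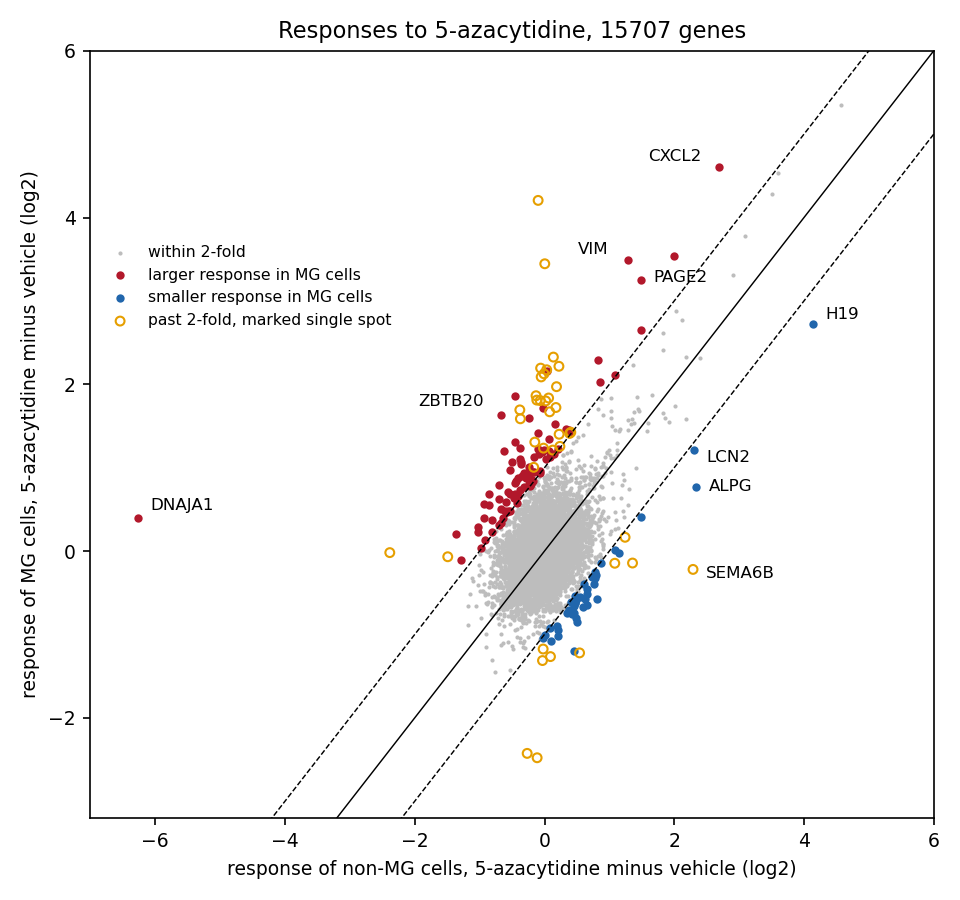
Response of non-MG cells (x axis) and of MG cells (y axis) to 5-azacytidine, as log2 of treated over vehicle, for 15707 genes with 1 array per condition. Points on the solid line have equal responses and the dashed lines mark a 2-fold difference. CXCL2, VIM and PAGE2 were raised in both subpopulations and more so in MG cells, H19, ALPG and LCN2 were raised more in non-MG cells, and open circles are single spots that deviate on 1 array.

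Promoter sequences are given first for the genes to which the results below return. All are the 250 bases before the RefSeq start on GRCh38.p14, written 5′ to 3′ on the strand of the gene. CXCL1 (chr4:73869143-73869392, plus strand) and CXCL2 (chr4:74099196-74099445, minus strand) encode neutrophil-attracting chemokines and are shown with the NF-kB-type motif GGAATTTCC in capitals, which begins 78 and 77 bases before the start. It was present in 98 of 22114 promoters of this length (0.443%), searched on both strands. PAGE2 (chrX:55088768-55089017, plus strand) encodes a cancer-testis antigen and is shown with its 11 CpG dinucleotides in capitals, against a median of 21 over the 7195 measured genes with a single promoter window. H2AC6 (chr6:26123922-26124171, plus strand) and H4C6 (chr6:26240143-26240392, plus strand) are replication-dependent histone genes. Capitals mark CCAAT on either strand, the octamer ATTTGCAT on either strand and TATAAA on the gene strand. H2AC6 held all of these motifs and H4C6 held CCAAT alone.
CXCL1: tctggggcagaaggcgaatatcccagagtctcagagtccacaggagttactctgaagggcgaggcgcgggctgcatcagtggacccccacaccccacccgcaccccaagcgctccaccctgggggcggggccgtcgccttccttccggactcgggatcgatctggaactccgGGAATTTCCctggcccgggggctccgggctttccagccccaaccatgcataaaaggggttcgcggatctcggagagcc
CXCL2: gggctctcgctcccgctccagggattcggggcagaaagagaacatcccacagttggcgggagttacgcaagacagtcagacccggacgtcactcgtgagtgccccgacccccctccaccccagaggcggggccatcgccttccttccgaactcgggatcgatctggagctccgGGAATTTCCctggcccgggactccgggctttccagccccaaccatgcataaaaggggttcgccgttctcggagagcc
PAGE2: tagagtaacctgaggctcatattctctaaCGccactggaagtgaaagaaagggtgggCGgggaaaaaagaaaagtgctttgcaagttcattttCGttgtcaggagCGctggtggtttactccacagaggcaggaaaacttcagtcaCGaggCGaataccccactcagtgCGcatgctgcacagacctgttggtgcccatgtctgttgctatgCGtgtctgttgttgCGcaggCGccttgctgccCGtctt
H2AC6: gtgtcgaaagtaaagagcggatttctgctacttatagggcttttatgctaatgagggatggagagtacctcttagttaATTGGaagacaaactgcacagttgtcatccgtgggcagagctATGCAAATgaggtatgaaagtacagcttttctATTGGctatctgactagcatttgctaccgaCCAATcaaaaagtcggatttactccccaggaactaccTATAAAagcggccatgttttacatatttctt
H4C6: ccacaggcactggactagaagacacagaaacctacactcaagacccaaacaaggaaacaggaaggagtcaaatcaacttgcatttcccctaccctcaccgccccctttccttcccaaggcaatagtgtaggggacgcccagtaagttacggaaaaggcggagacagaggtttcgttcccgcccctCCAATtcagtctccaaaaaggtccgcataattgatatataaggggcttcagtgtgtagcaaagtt

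Among genes with a larger response in MG cells, the chemokine CXCL2 had the largest response difference of those measured by more than 1 probe. All values by array that follow are log2 intensities minus the 75th percentile of the array, in the order non-MG vehicle, non-MG 5-azacytidine, MG vehicle and MG 5-azacytidine. CXCL2 was at -1.89, 0.80, -2.04 and 2.57. Both subpopulations were low and alike with vehicle, and both were raised by the drug, by 2.69 in non-MG cells and 4.60 in MG cells. The response difference was 1.92 (spot error 0.21), or 3.77-fold, and its 2 probes gave 2.0 and 1.84. CXCL1, whose promoter carries the same motif, was at -0.67, 2.93, -0.44 and 4.09. It too was raised in both subpopulations and stood highest in treated MG cells, although its 2 vehicle arrays were in the reverse order. Its response difference was 0.93 (spot error 0.15), short of 2-fold. The 7 measured chemokines and cytokines of the NF-kB list all had a response difference above 0, where 53.7% of all genes did. Their median was 0.25 and ranged from 0.18 to 0.31 over the scalings tried. Apart from CXCL2 and CXCL1 they lay between 0.14 and 0.35. The median response of the list was -0.03 in MG cells and -0.17 in non-MG cells, so it was not raised as a whole in either subpopulation. With probes above background on at least 1 array the list had 14 measured genes, all above 0, and a median of 0.997. This filter can let a gene in through the 1 array on which it is high, so these signs are partly set by the choice of genes. Over all genes it gave 872 larger and 856 smaller responses past 2-fold. BIRC3, an NF-kB-induced ubiquitin ligase that restrains cell death, was at 1.94, 2.79, 1.31 and 3.34. It was lower in MG cells than in non-MG cells with vehicle and higher after the drug, with a response difference of 1.18 (spot error 0.14). Of the 22 measured NF-kB subunits, inhibitors and effectors, 18 lay above 0, with a median of 0.22, and 1 passed 2-fold in each direction.

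VIM, which encodes the intermediate filament vimentin of mesenchymal cells, was at -0.68, 0.60, 0.71 and 4.20. It was higher in MG cells on both pairs of arrays, and the drug raised it in both subpopulations, by 1.28 in non-MG cells and 3.49 in MG cells. The response difference of 2.21 (spot error 0.18), or 4.61-fold, rests on 1 spot. Of the 20 measured mesenchymal genes VIM alone passed 1.5-fold. The list had a median of 0.22 with 14 genes above 0, where 53.7% of all genes were. ZEB1 and SNAI1, transcription factors of the epithelial-mesenchymal transition, had response differences of -0.26 (spot error 0.26) and 0.19 (spot error 0.13). CDH1, the epithelial cadherin, had one of 0.17 (spot error 0.04). None of these 3 genes came near 1.5-fold, and the 32 epithelial genes had a median of 0.08.

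PAGE2, 1 of 8 measured cancer-testis genes, was at -0.69, 0.80, -2.30 and 0.94. The subpopulations ended within 1.5-fold of each other after the drug, and the response difference of 1.76 (spot error 0.18) came with a lower level in MG cells with vehicle. Its 2 probes gave 1.77 and 1.76, and with normexp background correction it was 0.72. CTAG1A, the gene of the antigen NY-ESO-1, was at -1.38, 2.12, -1.72 and 2.57. It was strongly raised in both subpopulations, and its response difference of 0.78 (spot error 0.25) was within 2-fold. The remaining 6 cancer-testis genes lay between -0.38 and 0.30. MAGEA6, measured by 10 spots, had a response difference of 0.05.

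**Figure D2:**
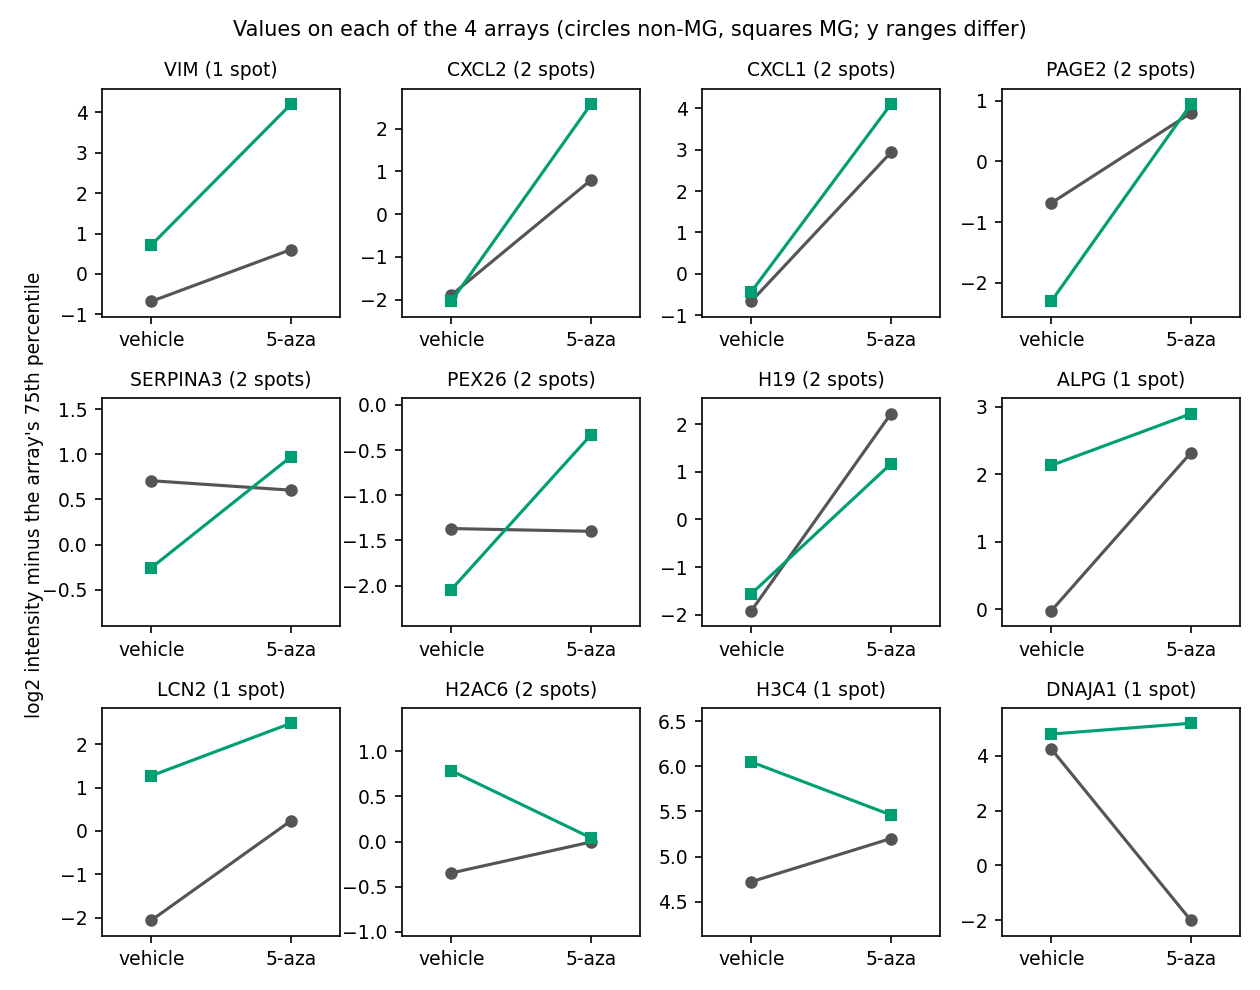
Log2 intensity minus the 75th percentile of the array (y axis, range set for each gene) with vehicle and with 5-azacytidine, for 12 genes in non-MG cells (circles) and MG cells (squares), 1 array per point. VIM and CXCL2 rise more steeply in MG cells, H19, ALPG and LCN2 rise more steeply in non-MG cells, the histone genes H2AC6 and H3C4 slope down in MG cells and slope up, within 1.5-fold, in non-MG cells, and DNAJA1 stands low on 1 array alone.

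SERPINA3 and PEX26 were raised in MG cells alone and had 2 probes each that passed 2-fold. SERPINA3, the acute-phase protease inhibitor alpha-1-antichymotrypsin, was at 0.71, 0.60, -0.26 and 0.97. PEX26, which anchors the peroxisomal import ATPases, was at -1.37, -1.40, -2.05 and -0.33. For both genes the non-MG arrays were nearly level and the MG cells went from the lowest value of the 4 to the highest. The response differences were 1.33 (spot error 0.13) and 1.74 (spot error 0.30), and they fell to 0.83 and 0.52 with normexp background correction. CXCL2, PAGE2, PEX26 and SERPINA3 were the only genes with 2 or more probes of which all passed 2-fold upward. H19 and H2AC6 were the only such genes downward, of 3224 genes with several probes. In the 2650 genes with exactly 2 probes the response differences of the pair had an r of 0.20 across genes and a median absolute difference of 0.22.

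Most other genes with a large response difference rested on 1 spot. ZBTB20, a zinc finger repressor, was at 1.88, 1.21, -0.39 and 1.25. It was lowered in non-MG cells and raised in MG cells, and the response difference was 2.31 (spot error 0.15). ZBTB33 encodes Kaiso, which binds methylated DNA, and was at 0.61, 0.26, -0.53 and 0.54. Its response difference was 1.43 (spot error 0.16), and MG cells with vehicle had the lowest of its 4 values. SAP25, a protein of the Sin3 corepressor, was at 2.43, 3.25, 1.62 and 3.91, with a response difference of 1.47 (spot error 0.12). NCAM1, a cell adhesion molecule, was at 0.32, -0.06, -0.94 and 0.30, with a response difference of 1.61 (spot error 0.21). SLC7A5, the transporter of large neutral amino acids, was at 3.63, 3.96, 2.77 and 4.23, with a response difference of 1.13 (spot error 0.11). In these 5 genes MG cells with vehicle had the lowest of the 4 values. The dimmer genes ONECUT3, ANO5, CFAP58, LIMD1-AS1, FRK and TLR3 had response differences from 1.5 to 2.32. TLR3, the endosomal sensor of double-stranded RNA, was at -1.81, -2.74, -1.69 and -1.12, and its response difference was 1.5 (spot error 0.46). The matrix protease MMP7 was similarly dim, at -1.30, -2.33, -1.51 and -1.28, with 1.26 (spot error 0.41). With normexp background correction ZBTB20, ZBTB33, SAP25, NCAM1, SLC7A5, BIRC3, VIM and CXCL2 stayed past 2-fold, while ONECUT3 came to 0.78, MMP7 to 0.40, and ANO5, CFAP58, LIMD1-AS1, FRK and TLR3 to between 0.29 and 0.35.

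In the 116 genes with a larger response, the drug raised 79 past 1.5-fold in MG cells while they stayed within 1.5-fold in non-MG cells. A further 19 were lowered in non-MG cells alone, 8 were raised in both subpopulations, and 6 were raised in MG cells and lowered in non-MG cells. With vehicle, 72 of the 116 were lower in MG cells than in non-MG cells past 1.5-fold, as were 8.24% of all genes, and 56 of these 72 were within 1.5-fold after the drug. In 38 the subpopulations lay within 1.5-fold with vehicle, and MG cells were higher after the drug. The level with vehicle enters the response difference with the opposite sign, so these counts describe the calls and test nothing.

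The genes with a smaller response in MG cells were led, where 2 probes measured them, by H19, the imprinted long noncoding RNA. H19 was at -1.92, 2.21, -1.56 and 1.17. It was among the genes most raised by the drug in both subpopulations, by 4.13 in non-MG cells and 2.73 in MG cells. The response difference was -1.41 (spot error 0.20), with -1.39 and -1.42 from its 2 probes, and -0.81 with normexp background correction. ALPG, the germ cell alkaline phosphatase, was at -0.03, 2.32, 2.13 and 2.89. MG cells with vehicle already stood near the treated non-MG cells, and the response difference was -1.58 (spot error 0.14). LCN2, a siderophore-binding protein of epithelial defence, was at -2.07, 0.23, 1.27 and 2.49. The drug raised it by 2.30 in non-MG cells and 1.21 in MG cells, for a response difference of -1.09 (spot error 0.24). With normexp background correction it was 0.07, with the opposite sign. Beside these 3 genes and the histone gene H2AC6, the other 11 unmarked genes among the 15 lowest with a symbol included PTPN9, TMEM67, DYRK1B, KCNIP4, PCDHGA7 and ZNF316. Those 11 genes were dim, with mean log2 intensities below 6, and none of them stayed past 2-fold with normexp background correction.

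In the 50 genes with a smaller response, 25 were lowered past 1.5-fold in MG cells alone and 18 were raised in non-MG cells alone. Another 3 were raised in both, as H19, ALPG and LCN2 were, and 2 went in opposite directions. With vehicle 22 of the 50 were higher in MG cells past 1.5-fold, as were 5.68% of all genes, and 19 of these 22 were within 1.5-fold after the drug. In 27 the subpopulations lay within 1.5-fold with vehicle, and MG cells were lower after the drug. The levels with vehicle and after the drug both enter the response difference, so these counts too describe the calls and test nothing.

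The replication-dependent histone genes, which supply the nucleosomes of newly made DNA, formed the list with the lowest median of the 26 examined. All 56 measured genes of this list had a response difference below 0, where 46.3% of all genes did, and 29 of the 56 passed 1.5-fold, where 2.41% of all genes did. Their median was -0.60 and their range -1.09 to -0.03. In 42 of the 56 the size was at least 3 times the spot error. The share of all genes that reached this multiple is not given, and bright genes, with their smaller spot error, reach it more easily. The direction held in 55 of 56 with median centring, in 54 of 56 with normexp background correction and in all 56 with quantile normalization. Neighbouring histone genes are near copies of each other, so a probe may take signal from several, and the 56 values are not independent.

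H3C4 was at 4.72, 5.20, 6.05 and 5.46, and its response difference was -1.06 (spot error 0.10). H2AC6, which had 2 probes, was at -0.35, 0.00, 0.79 and 0.04, with a response difference of -1.09 (spot error 0.20) that came to -0.65 with normexp background correction. H3C7 was at 3.35, 3.82, 4.54 and 4.0, with a response difference of -1.0 (spot error 0.11). In these 3 genes the response was above 0 but within 1.5-fold in non-MG cells and below 0 in MG cells, and the highest of the 4 values was that of MG cells with vehicle. H4C6 was at 1.85, 2.15, 2.42 and 1.74 and had a response difference of -0.98 (spot error 0.13). It repeated that order except that its lowest value was that of treated MG cells. Over the list, 49 of 56 genes had a response below 0 in MG cells (54.2% of all genes), with a median of -0.40, and 47 of 56 had one above 0 in non-MG cells (41.9% of all genes), with a median of 0.22. With vehicle 55 of 56 were higher in MG cells (48.7% of all genes), with a median difference of 0.67 between the subpopulations. After the drug this median was 0.12 and 38 of 56 were higher in MG cells (51.8% of all genes).

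**Figure D3:**
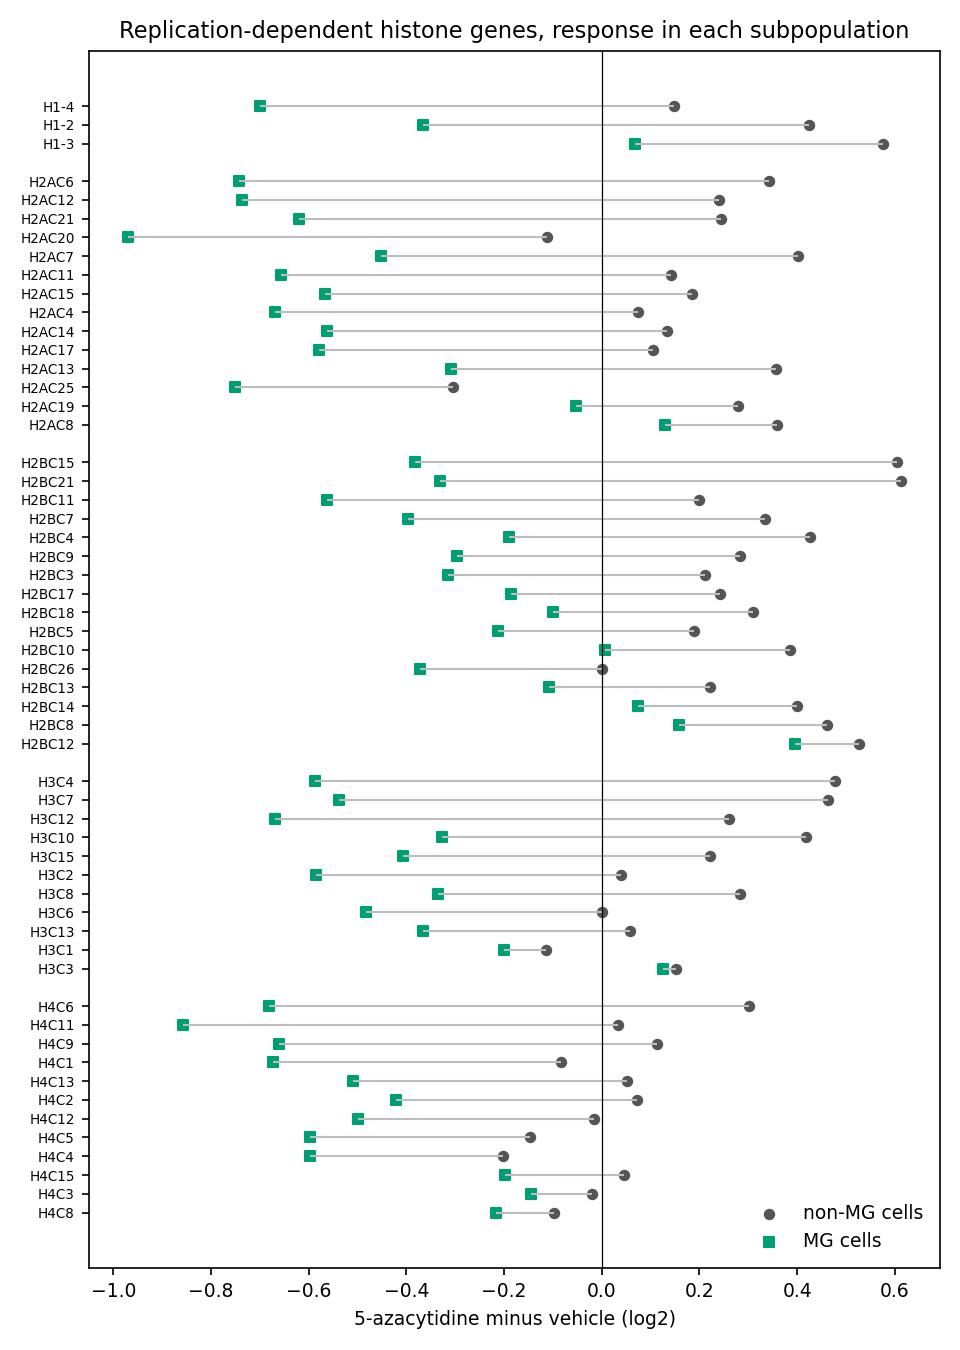
Response to 5-azacytidine (x axis, log2 of treated over vehicle) of 56 replication-dependent histone genes (y axis), grouped from top to bottom as H1, H2A, H2B, H3 and H4, in non-MG cells (circles) and MG cells (squares), 1 array per condition. The square lies to the left of the circle for every gene, most often with the square below 0 and the circle above it.

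Every histone class shared the direction. The median response difference was -0.79 for the 3 linker H1 genes, -0.75 for 14 H2A genes, -0.42 for 16 H2B genes, -0.62 for 11 H3 genes and -0.49 for 12 H4 genes. All 16 H2B genes were raised in non-MG cells in sign, whereas the H4 genes were nearly level there, with a median of 0.01, and all 12 lay below 0 in MG cells. The smallest differences were those of H3C3 at -0.03 and H3C1 at -0.09. The 24 histone genes with a mean log2 intensity of at least 10 were all below 0, with a median of -0.62, so the shift was as large among bright probes. The 11 histone genes outside the replication-dependent set, chosen after their values were seen, had a median of -0.11, and none passed 1.5-fold. Of these 11, 9 also lay below 0, where 46.3% of all genes did. The lowest was H1-10 at -0.54 (spot error 0.14). Replication-dependent histone mRNAs mostly end in a stem-loop without a poly(A) tail, while the labelling of such arrays starts from poly(A), and whether the values follow total histone mRNA was not tested.

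The histone promoters had sequence features in common that played no part in choosing them. Of the 48 histone genes with a single promoter window, 41 (85.4%) held CCAAT within 250 bases before the start, compared with 33.4% of 22114 promoters. The octamer ATTTGCAT was found in 20 of 48 (41.7%), compared with 1.71%, and in 11 of the 14 H2B genes. TATAAA on the gene strand was found in 27 of 48 (56.2%), compared with 7.72%. These promoters held a median of 9 CpG dinucleotides, against 21 over the 7195 measured genes. The median was 19 over 47 genes with a larger response past 2-fold and 13 over the 35 of them that were not marked. It was 10 over 17 genes with a smaller response and 15 over 15 of these without the histones, so the order of the larger and smaller sets turned with these exclusions. A match to these letters describes the sequence and shows no binding.

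DNA replication genes moved the same way by less. Of 43 measured genes for origins, forks and nucleotide synthesis, 36 lay below 0, where 46.3% of all genes did. Their median was -0.18, and none passed 1.5-fold. MCM6, a subunit of the replicative helicase, was at 4.37, 4.63, 5.24 and 5.09, with a response difference of -0.42 (spot error 0.10). PCNA, the sliding clamp, was at 4.54, 4.89, 5.40 and 5.48, with -0.28 (spot error 0.06). Both were higher in MG cells on each pair of arrays, and the gap was narrower after the drug. HELLS and UHRF1, which assist DNA methylation behind the fork, had response differences of -0.57 (spot error 0.10) and -0.45 (spot error 0.09). They belong to another list, that of the DNA methylation machinery, whose direction depended on the processing. Of its 16 measured genes 9 lay above 0, where 53.7% of all genes did. The median was 0.07, and ZBTB33 was highest at 1.43. With the brightest probe of each gene 7 of 16 lay above 0, with a median of -0.08. With a log2 intensity of at least 5 on all arrays the median was -0.05. The methyltransferases DNMT1, DNMT3A and DNMT3B lay between -0.17 and -0.13, and the 30 mitosis genes had a median of 0.10. The median of the replication list stayed below 0 under every scaling tried, from -0.25 to -0.12.

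Interferon-stimulated genes lay above the other genes as a list. Of 30 measured, 27 had a response difference above 0, where 53.7% of all genes did. The median was 0.31 and ranged from 0.21 to 0.37 over the scalings and background corrections tried. In 5 genes it passed 1.5-fold upward, where 3.55% of all genes did. DDX60, an interferon-induced helicase, had the largest, 1.18, but it is dim and its spot error was 0.48. IRF7, the transcription factor that amplifies type I interferon, was at 3.08, 3.49, 1.85 and 3.27, and this single spot was marked because only its value for MG cells with vehicle was low. IRF1, another factor of the pathway, was at -0.02, -0.41, -0.57 and -0.10, and its response difference was 0.86 (spot error 0.19). BST2, which tethers budding viruses and had 2 probes, was at 0.65, 0.64, -0.79 and -0.10, with 0.71 (spot error 0.15). OASL had 0.62 (spot error 0.15). The bright ISG15, a ubiquitin-like protein, was at -0.03 (spot error 0.10), so the list did not move as a block. The list's median response was 0.12 in MG cells and -0.15 in non-MG cells.

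Metallothioneins, which bind zinc and copper, lay above 0 in all 10 measured genes of the list, which includes the zinc exporter SLC30A1 and the regulator MTF1. The median was 0.33, and all 10 stayed above 0 under each scaling and with normexp background correction. MT1B was at 7.53, 7.25, 6.48 and 6.97, with a response difference of 0.76 (spot error 0.10). MT2A was at 8.78, 8.90, 7.86 and 8.57, with 0.58 (spot error 0.10). In both genes MG cells with vehicle had the lowest value. The MT1 genes are close copies and their probes may share signal. Among 29 p53 targets, 22 lay above 0, where 53.7% of all genes did, with a median of 0.18. With the 75th percentile taken over the measured probes alone, 19 lay above 0 and the median was 0.11. BAX, which opens the mitochondrial membrane, was at 1.67, 1.36, 1.95 and 2.38 over 9 spots, with 0.73 (spot error 0.12). The death receptor gene FAS was at -0.64, -0.45, 0.13 and 0.99 over 10 spots, with 0.67 (spot error 0.11). These 2 of 29 were the p53 targets past 1.5-fold, where 3.55% of all genes were.

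**Figure D4:**
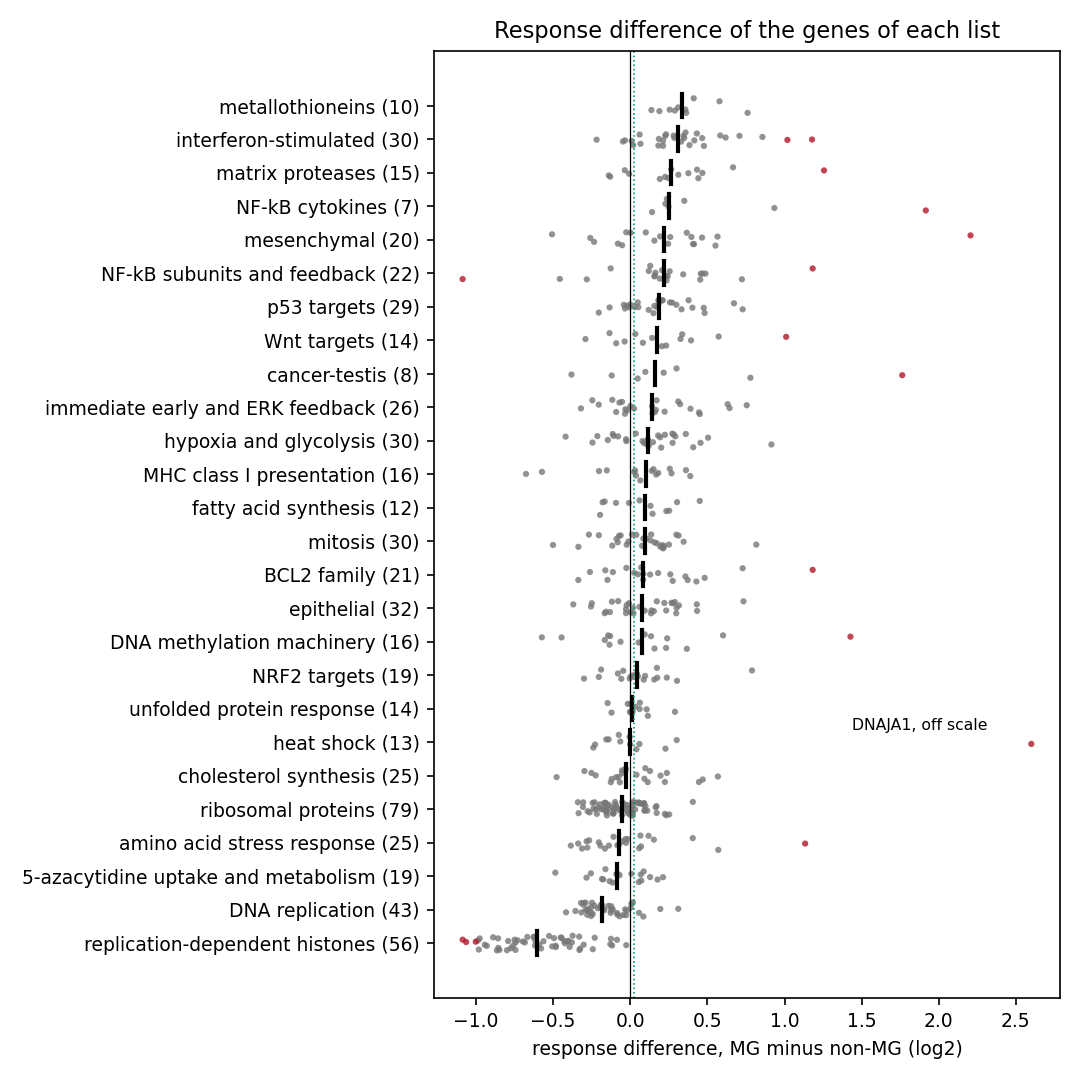
Response difference on the log2 scale (x axis) of the measured genes of 26 lists (y axis, number of measured genes in brackets), with list medians as black bars, the median of all genes as a dotted line and genes past 2-fold in red. The replication-dependent histones lie wholly below 0 with a median of -0.60, the 10 metallothioneins and 7 NF-kB cytokines wholly above 0, and DNAJA1 at 6.66 is drawn at the edge.

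The 79 ribosomal protein genes, among the brightest on the array, had a median of -0.05 and none past 1.5-fold. The 19 genes for uptake and metabolism of 5-azacytidine had a median of -0.08 with none past 1.5-fold, and the lowest was DCK, a nucleoside kinase, at -0.49 (spot error 0.30). The nucleoside transporter SLC29A1 was at 0.18 (spot error 0.13). The 15 matrix protease genes had a median of 0.27 and the 14 Wnt targets one of 0.17. The unfolded protein response, heat shock, cholesterol and NRF2 lists had medians between -0.03 and 0.04.

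The largest response difference of all, 6.66, was that of the co-chaperone DNAJA1, at 4.26, -2.01, 4.80 and 5.19. Its single spot was low on the array of treated non-MG cells and bright on the other 3. By the rule of the comparison, a gene was marked where its only spot lay more than 2-fold from the nearest of the other 3 arrays while these lay within 1.5-fold of each other. DNAJA1 escaped this mark because its other 3 values spanned 0.93, and a mark relative to that span, chosen after its values were seen, caught it. The rule marked 44 genes, of which 28 were among the 116 larger and 10 among the 50 smaller responses. The deviating array was that of MG cells with vehicle in 15 of the 28 and that of treated MG cells in 11. Marked genes with a larger response included C3orf33 at 3.44, USP13 at 2.37, ZNF709 at 2.25, FAM201A and MRPL20-AS1 at 2.14, VASN at 2.13 and ZNF727 at 1.99. Those with a smaller one were led by SEMA6B at -2.51, TXLNG at -2.37 and SNORA70F at -2.16.

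Large response differences were most frequent among dim probes. At mean log2 intensities under 5, 3.69% of 2033 genes passed 2-fold, and the share was 1.61% from 5 to 6, 0.756% from 6 to 8, 0.346% from 8 to 10 and 0.147% of 2728 genes above 10. The median spot error over these ranges fell from 0.40 to 0.10. Of the 116 larger responses 73 and of the 50 smaller ones 39 had mean log2 intensities below 6. Over all 15707 genes the count was 4329. The size was at least 3 times the spot error in 94 of the 116 and in 25 of the 50. The share of all genes that reached this multiple is not given. These genes were called by size, so the counts do not test the calls.

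**Figure D5:**
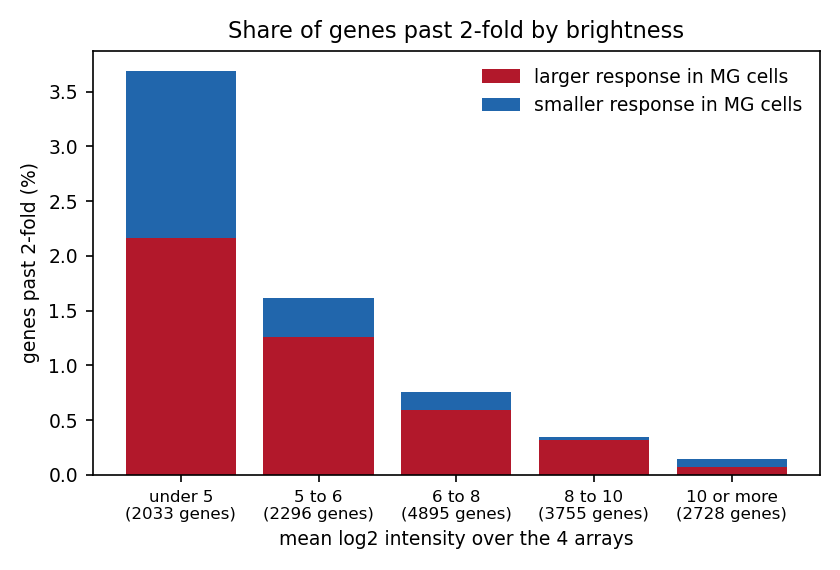
Share of genes past 2-fold in the response difference (y axis, percent) by mean log2 intensity over the 4 arrays (x axis, with the number of genes), split into larger (red) and smaller (blue) responses in MG cells. The share falls from 3.69% in the dimmest range to 0.147% in the brightest.

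Facts of the arrays bear on all values. Between 21382 and 21881 probes were well above background on each array, and the 75th percentile of intensity lay between 75.2 and 98.7. All 4 arrays were on 1 slide, with non-MG cells in one row, MG cells in the next, vehicle in one column and 5-azacytidine in the other. An effect of a row or a column that adds to log2 values cancels in the response difference, whereas an effect of 1 position cannot be told apart from it. Of 11 colon epithelial markers with a probe, 10 were well above background on all 4 arrays, EPCAM, CDX2 and the keratins KRT8 and KRT18 among them. Of 13 markers of fibroblasts, leukocytes and endothelium, 3 were, namely COL1A1, CD14 and VWF, while PTPRC, DCN, PECAM1 and CDH5 failed that flag on all 4. Fewer cells of a kind and less RNA per cell cannot be told apart in these bulk samples.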

How the data were processed

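Total RNA of MG and non-MG HCT116 cells, with 5-azacytidine or vehicle, was labelled with Cy3 and hybridized to 4 one-colour Agilent arrays, and per the labels it was extracted with RNAiso Plus. The authors deposited Agilent Feature Extraction 11.5.1.1 output with a background-corrected intensity per spot, and a table of log2 values centred per probe, used only as an alternative. The normalization behind that table is not given in the sources used here.

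The deposited intensity was used without control spots or outlier-flagged spots, the spots of a probe were averaged, and log2 values were reduced by the 75th percentile of the array. Probes well above background on all 4 arrays were averaged per gene, named by accession through RefSeq (GRCh38.p14). With 1 array per condition no test was made. A response difference past 2-fold and a response past 1.5-fold were counted. Spot error is the median SD between spots of probes spotted 10 times, by range of intensity. Named genes were the 15 highest and 15 lowest unmarked with a symbol, marked genes of that rank, genes with all probes past 2-fold, list members past 2-fold, genes moving in opposite directions, and VIM, ZEB1, CDH1, SNAI1 and ZNF350, and further names were picked with their values in view. The comparison, the members and the gene lists were chosen with earlier results of these data known. The calculation was tested on simulated data. Promoter windows came from RefSeq, and motifs were searched in genes with a single window. Normexp (offset 50, on median spot intensity) was run in limma 3.58.1 under R 4.3.3, and the rest in Python 3.11.15 with pandas 2.3.3, numpy 2.4.6 and, for plots, matplotlib 3.10.9.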

Additional observations from a re-analysis of the deposited data

Results flagged for a closer look

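Genes that passed 1.5-fold in opposite directions in MG and non-MG cells are given because every array pair of one subpopulation moved against the other; none of these differences was tested, and each rests on 1 spot. Raised in MG cells and lowered in non-MG cells were ZBTB20 with a response difference of 2.31, ANO5 with 1.83, the kinase gene FRK with 1.5, the ubiquitin ligase subunit FBXW8 with 1.31, and the unnamed transcripts TCONS_00013783 with 1.54 and A_33_P3245126 with 1.18. Lowered in MG cells and raised in non-MG cells were FAM21EP with -1.26 and the unnamed transcript TCONS_l2_00024508 with -1.30. Of these 8, ZBTB20 alone stayed past 2-fold with normexp background correction, at 1.67.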

How the results depend on the processing

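The counts past 2-fold, 116 larger and 50 smaller, moved by more than 1.5 times with normexp background correction (30 and 5), with probes above background on at least 1 array (872 and 856), with a log2 intensity of at least 5 on all arrays (45 and 13), with genes measured by 2 or more spots (8 and 2), and with thresholds of 1.5-fold (558 and 378) and 3-fold (30 and 5). They were within 1.5 times with median centring, quantile normalization, the percentile over measured probes, outlier spots kept, the brightest probe, probes in place of genes, the values of the authors, and without marked genes (88 and 40, or 87 and 40 with the mark added after the data were seen). The values of the authors were no separate check, because they differ from those used by a near-constant shift in the response difference. The 56 histone genes below 0 became 9 of 9 with 2 or more spots and 57 of 62 with the looser filter. With normexp, 38 named genes fell below 2-fold and the response difference of LCN2 turned to 0.0706; no other named gene past 2-fold changed sign under any alternative. The causes were not tested. The slide could not be fitted as a block because there is 1 slide. No paired analysis was possible because each condition has 1 array. The 4 arrays, and dim signals above all, limit the precision.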

Other observations

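Genes outside the comparison had no probe well above background on all 4 arrays, so no response difference is given for them. Of the 40909 genes and unnamed transcripts on the array, 491 passed the background flag in treated MG cells alone and 362 in treated non-MG cells alone. Another 189 passed it on both treated arrays and on neither vehicle array. Counts for a vehicle array alone are not given, so these numbers are not a count of genes switched on by the drug. A further 170 genes failed the flag only in vehicle-treated MG cells and 114 only in vehicle-treated non-MG cells. The corresponding counts for the treated arrays were 332 genes for MG cells and 127 for non-MG cells. The lowest intensity that passed the flag was 9.95 in treated non-MG cells and 11.8 in treated MG cells. Whether this difference enters the counts was not tested. ZNF350, a zinc finger repressor, belongs to the 170. Its intensity was 31.5 in non-MG cells with vehicle, 34.3 in non-MG cells with 5-azacytidine, 2.6 in MG cells with vehicle, where it was not well above background, and 15.1 in MG cells with 5-azacytidine.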
